A study of Mus musculus with 8 samples.

Results

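Of 35 imprinted mouse genes named for this account, 32 had a probe set of their own on the array, among 12393 genes measured. Members were found by gene symbol in the platform annotation, and where a gene had several probe sets the one with the highest mean over the 8 arrays stood for it. H19, Zrsr1 and Ppp1r9a had no probe set annotated to them alone and are not analysed here. Expression was measured on Affymetrix Mouse 430A 2.0 arrays in J1, an established mouse embryonic stem (ES) cell line grown on gelatin in serum with leukemia inhibitory factor. The 8 arrays formed 4 groups of 2: cells with a control hairpin (shControl), knockdown cells with 1 of 2 Fbxl19 hairpins, called shRNA1 and shRNA2 here, and differentiated cells taken on day 4. Fbxl19 encodes an F-box protein whose CXXC zinc finger binds unmethylated CpG DNA, and the series asked what its knockdown changes in stem cells. The labels give neither the way of differentiation nor any hairpin for the day 4 cells, and the culture medium they give is that of stem cells. Whether the 2 arrays of a group are separate cultures is not stated either, and every p-value here rests on array-to-array spread that may be technical.

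An imprinted gene is transcribed mainly or only from the copy inherited from the mother or from the father. The choice is set by DNA methylation laid down in egg or sperm at imprinting control regions, and it is kept in the early embryo and in ES cells by the zinc finger protein ZFP57, its partner TRIM28 and the maintenance methyltransferase DNMT1. Many imprinted genes lie in domains under a shared control region, and many act on fetal growth, the placenta or the brain: paternally expressed Igf2 promotes growth, and maternally expressed Cdkn1c and Igf2r restrain it. Probe sets read RNA from both copies together, so nothing here shows which copy was transcribed.

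With 0 probe sets for Fbxl19 on the array, these data hold no measure of the knockdown itself. The description of each knockdown sample names a different Fbxl gene, and the titles, which name Fbxl19 throughout, were followed. Replicate 2 of shControl stood apart in its distribution, with a median of 5.81 on the log2 scale where the other arrays had 5.70 to 5.76. Actin control probe sets, whose 3' signal minus 5' signal is a sign of RNA quality, gave 0.54 and 0.60 in shControl, 0.70 to 0.76 on the hairpin arrays and 0.65 and 0.73 on day 4. The part of these array differences in the results was not tested. As a check of the labels, all 10 ES cell markers were measured above the dim range defined next. On day 4, 7 of the 10 fell by limma's moderated test. Klf4 changed by -4.55 ± 0.37 (moderated standard error, SE; adjusted p = 7.52e-05), whereas Pou5f1 had a change of -0.25 ± 0.14 (adjusted p = 0.281). Values throughout are log2 expression, and a gene is called dim where it lay below 3.79, the lowest of the arrays' lower quartiles, on every array. Of the 32 members 5 were dim (Peg10, Zim1, Kcnq1, Rasgrf1 and Usp29), where 14.5% of all genes were.

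Promoter sequences are shown for 4 members the results turn on: Plagl1 and Phlda2, which had the largest differences with a hairpin, and Peg3 and Gatm, which were higher on day 4. Each is the 250 bases before the RefSeq transcription start in GRCm38.p6, 5' to 3' on the gene's strand, with every CpG in capitals because CXXC domains bind CpG. The windows lie at chr10:13090582-13090831, plus strand; chr7:143502525-143502774, minus strand; chr7:6730420-6730669, minus strand; and chr2:122611278-122611527, minus strand.
Plagl1: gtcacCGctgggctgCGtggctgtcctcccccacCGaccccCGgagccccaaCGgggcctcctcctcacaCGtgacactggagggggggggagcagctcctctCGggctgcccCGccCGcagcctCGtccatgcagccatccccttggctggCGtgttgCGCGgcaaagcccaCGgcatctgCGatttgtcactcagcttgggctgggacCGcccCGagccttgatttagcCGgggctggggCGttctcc
Phlda2: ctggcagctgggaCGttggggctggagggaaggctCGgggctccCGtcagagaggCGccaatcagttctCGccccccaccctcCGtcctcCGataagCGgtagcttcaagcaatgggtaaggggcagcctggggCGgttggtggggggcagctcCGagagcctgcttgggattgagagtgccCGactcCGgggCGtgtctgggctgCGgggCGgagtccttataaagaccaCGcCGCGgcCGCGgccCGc
Peg3: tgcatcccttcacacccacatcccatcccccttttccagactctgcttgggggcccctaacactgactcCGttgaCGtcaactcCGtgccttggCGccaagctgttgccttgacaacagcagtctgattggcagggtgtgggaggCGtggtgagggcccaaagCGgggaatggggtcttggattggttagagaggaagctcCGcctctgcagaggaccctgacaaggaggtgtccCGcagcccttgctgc
Gatm: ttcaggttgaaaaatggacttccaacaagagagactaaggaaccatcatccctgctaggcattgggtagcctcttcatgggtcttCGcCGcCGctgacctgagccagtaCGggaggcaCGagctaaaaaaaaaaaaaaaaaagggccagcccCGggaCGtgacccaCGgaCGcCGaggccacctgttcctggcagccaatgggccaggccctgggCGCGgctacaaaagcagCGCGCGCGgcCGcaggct
Plagl1 had 19 CpG in this window, Phlda2 21, Peg3 8 and Gatm 17, against a median of 6 over all 32851 promoter windows. RefSeq windows were found for 28 of the 35 genes, 43 windows in all, with 0 to 40 CpG and a median of 10. The other members are H19, Peg10, Cdkn1c, Impact, Sgce, Kcnq1 and Dcn. The most CpG-rich was 1 of 2 windows of Grb10, with 40. The window of Peg3 overlaps that of its neighbour Usp29, on the other strand, by 163 bases. The letters TGCCGC, the core of the methylated sequence bound by ZFP57, were searched on both strands. They occurred in 6 windows of 5 members (Plagl1, Mest, Meg3, Zim1 and Nap1l5), 14.0% of the members' windows, and in 8.68% of all windows. The members' share counts 2 Mest windows that overlap almost entirely and so hold the same matches.

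On day 4, 10 of the 32 imprinted genes rose and 0 fell against shControl. Over all genes limma called 16.4%, with 7.67% higher and 8.73% lower. At an unadjusted p under 0.05 there were 16 members, with 29.2% of all genes. The 10 were Gatm, Grb10, Peg3, Sgce, Ndn, Impact, Gnas, Plagl1, Igf2 and Cdkn1c. The members' median change was 0.33, where that of all genes was -0.00058, and 21 of 32 members lay above 0 (50.0% of all genes). Members were chosen with earlier results of these data known, so these shares are no test of imprinted genes as a class. For 34 other imprinted genes, given below, the median change was 0.01. Both day 4 arrays were above both shControl arrays for 18 members and below for 2, against 24.1% and 26.3% of all genes. Leaving out either array of shControl left 5 of the 10. Of the 10, 8 stayed without any 1 hairpin array, and 5 with only shControl and day 4 in the fit, where Plagl1, Igf2, Cdkn1c, Ndn and Impact were lost. Without day 4 replicate 1, 7 of the 10 stayed, with Plagl1, Igf2 and Impact lost and Dlk1 and Magel2 gained. Without day 4 replicate 2, 9 stayed, with Cdkn1c lost and Cd81 gained. Peg3, Grb10, Gatm and Gnas were called under every one of these settings.

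**Figure D1:**
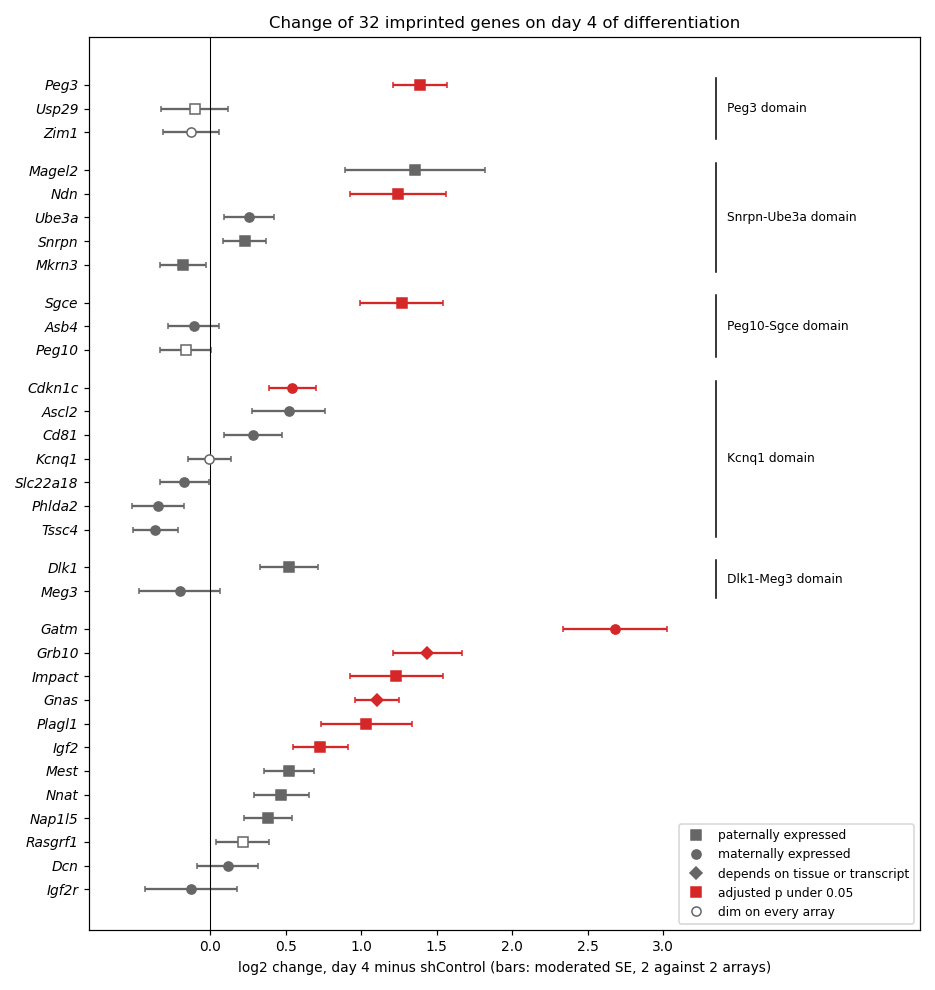
Log2 change from shControl to day 4 for the 32 imprinted genes, grouped by domain where a domain had several measured genes; points are differences of group means, bars the moderated SE of 2 against 2 arrays. The 10 called genes (red) lie between 0.54 (Cdkn1c) and 2.68 (Gatm). Among the 32 genes drawn, each multi-gene domain that has a called gene has exactly 1. In these domains Usp29, Zim1, Peg10 and Kcnq1 were dim on every array. Calcr and Pon2, which lie near Sgce and also rose, are not among the genes drawn.

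Among regulators of growth and signalling, Grb10, an adaptor that dampens insulin receptor signalling, stood at 8.83 and 9.06 in shControl and 10.765 and 10.002 on day 4. It rose by 1.44 ± 0.23 (SE, 2 against 2 arrays; 2.71-fold; adjusted p = 0.0028), with no overlap between the groups. Its other 2 probe sets had changes of 0.34 and 0.25, and averaging all 3 gave a rise of 0.68. Gnas, which encodes the stimulatory G protein alpha subunit, was at 9.72 and 9.998 in shControl and 10.96 on both day 4 arrays. It rose by 1.10 ± 0.14 (2.15-fold; adjusted p = 0.00105), while its other 3 probe sets had -0.15 to 0.29. Averaging its probe sets gave 0.37, which missed the threshold (adjusted p = 0.057). The Gnas locus makes several transcripts with different imprinting, and the annotation does not say which of them each probe set reads.

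Igf2, the fetal growth factor, had 5.27 and 4.88 in shControl and 5.91 and 5.70 on day 4, a rise of 0.73 ± 0.18 (adjusted p = 0.0247). The call was lost without shControl replicate 2 (0.54), without day 4 replicate 1 (0.62) and when its probe sets were averaged (0.45). Igf2r, the receptor that clears it, had 7.65 and 8.30 in shControl and 8.30 and 7.39 on day 4. The groups overlapped fully, and the change was -0.13 ± 0.31 (adjusted p = 0.836). Cdkn1c, which encodes the cell cycle inhibitor p57, had 6.77 and 6.93 in shControl and 7.21 and 7.58 on day 4, a rise of 0.54 ± 0.16 (adjusted p = 0.045). It was not called without either shControl array (0.46 and 0.62), without day 4 replicate 2 (0.36), without any 1 hairpin array (0.54), or with trend and robust settings of the model (adjusted p = 0.0617).

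Of the imprinted transcription factors, Peg3, a zinc finger protein of maternal behaviour and growth, had nearly equal values on the day 4 arrays. It stood at 7.78 and 8.29 in shControl and 9.42 and 9.43 on day 4, and rose by 1.39 ± 0.18 (2.62-fold; adjusted p = 0.000943). All 3 of its probe sets were called, with 0.76 to 1.39. Its domain neighbours Usp29 and Zim1 were dim on every array, with day 4 changes of -0.10 ± 0.22 and -0.13 ± 0.19. So in this domain a single gene was measured above the dim range.

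Plagl1 encodes a zinc finger protein that induces cell cycle arrest and regulates other imprinted genes. It had 6.65 and 6.95 in shControl and 8.39 and 7.28 on day 4, a rise of 1.03 ± 0.30 (adjusted p = 0.0486). Replicate 2 of day 4 minus replicate 1 was -1.12, and of the called genes this one lay nearest to the threshold. The value was 0.48 without day 4 replicate 1 and 1.59 without replicate 2, and 0.60 after averaging its 2 probe sets. The call was lost without day 4 replicate 1, without either shControl array (0.88 and 1.19) and without any 1 hairpin array, which leave the change at 1.03 and alter only the shared spread. Its other probe set was dim on every array.

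In the Snrpn-Ube3a domain, the region of the Prader-Willi and Angelman syndromes, Ndn rose. Ndn encodes necdin, a protein of differentiating neurons, and had 7.004 and 7.39 in shControl and 7.87 and 9.01 on day 4. The rise was 1.24 ± 0.32 (2.37-fold; adjusted p = 0.029). Of its 8 probe sets 5 were called and the other 3 were dim. Ndn was not called without either shControl array (1.05 and 1.44), and had 0.67 without day 4 replicate 2 and 0.75 when its probe sets were averaged.

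Magel2, a relative of necdin in the same domain, did not pass. It had 5.28 and 5.37 in shControl but 5.74 and 7.62 on day 4, so that the change of 1.36 ± 0.47 (adjusted p = 0.0844) was 2.30 without day 4 replicate 1, where it was called, and 0.42 without replicate 2. The ubiquitin ligase gene Ube3a had 9.99 and 10.04 in shControl and 10.50 and 10.04 on day 4 (0.26 ± 0.17). Snrpn, a splicing factor gene, had 5.71 and 5.89 and then 5.91 and 6.14 (0.23 ± 0.14); only the probe set annotated to Snrpn alone was used. Mkrn3, a ring finger gene that restrains puberty, had 5.58 and 5.81 and then 5.66 and 5.37 (-0.18 ± 0.15). Adjusted p was 0.333 to 0.489 for these 3 genes.

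Sgce, the epsilon-sarcoglycan gene, shares a control region with Peg10, a retrotransposon-derived gene needed in the placenta. Sgce had 4.65 and 5.35 in shControl and 6.40 and 6.14 on day 4, a rise of 1.27 ± 0.28 (2.41-fold; adjusted p = 0.0142). Without shControl replicate 1 it had 0.92 and was not called. Peg10 was dim on every array, at 2.98 to 3.55. Asb4, an ankyrin and SOCS box gene of the same domain, had 3.63 and 3.99 in shControl and 3.55 and 3.85 on day 4 (-0.11 ± 0.17), so the groups overlapped.

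Of the genes that act in metabolism and translation, Gatm, which makes the creatine precursor guanidinoacetate, showed the largest change. It lay at 3.10 and 3.33 in shControl and 5.26 and 6.52 on day 4, a rise of 2.68 ± 0.34 (adjusted p = 0.000933). Its control mean of 3.21 was below 3.79, and with no background measure in the deposited values a fold cannot be bounded. Impact, a regulator of translation that inhibits the kinase GCN2, had 8.90 and 8.70 in shControl and 10.55 and 9.52 on day 4, a rise of 1.23 ± 0.31 (2.35-fold; adjusted p = 0.0254). It was 0.72 and not called without day 4 replicate 1, and the call was also lost without either shControl array (1.33 and 1.13).

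The large Kcnq1 domain, in which several genes are imprinted mainly in the placenta, had 7 measured members, and apart from Cdkn1c none was called on day 4. Phlda2, a pleckstrin homology gene that limits placental growth, had 10.33 and 10.73 in shControl and 10.05 and 10.32 on day 4 (-0.35 ± 0.17; adjusted p = 0.225). Tssc4 had 8.10 and 8.07 and then 7.70 and 7.74 (-0.36 ± 0.15; adjusted p = 0.145). These were the 2 members whose day 4 arrays both lay below the controls. Ascl2, a trophoblast transcription factor, had 4.89 and 5.18 in shControl and 5.54 and 5.57 on day 4 (0.52 ± 0.24; adjusted p = 0.198). The tetraspanin gene Cd81 had 10.69 and 10.84 and then 11.35 and 10.74; its change of 0.28 ± 0.19 was 0.58, and called, without day 4 replicate 2, and -0.02 without replicate 1. Slc22a18, a transporter gene, had 5.87 and 5.56 and then 5.64 and 5.46, and the potassium channel gene Kcnq1 was dim, at 3.26 to 3.67.

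The remaining members were not called. Mest, a hydrolase gene of the mesoderm, had 8.76 and 8.60 in shControl and 9.28 and 9.12 on day 4, a difference of 0.52 ± 0.17 that lay just outside the threshold (adjusted p = 0.0669). Dlk1, a Notch-like ligand gene that restrains adipocyte formation, went from a mean of 4.04 to 4.56 (adjusted p = 0.109; 0.75 and called without day 4 replicate 1), and the noncoding RNA of its domain, Meg3, had means of 8.22 and 8.02. The brain gene Nnat had means of 3.27 and 3.74, the histone chaperone relative Nap1l5 3.95 and 4.34, the proteoglycan gene Dcn 3.80 and 3.91, and the exchange factor gene Rasgrf1, dim throughout, 2.95 and 3.17. By the copy that is usually expressed, 6 of 16 measured paternally expressed genes rose (median change 0.52) and 2 of 14 maternally expressed genes did (median -0.06). Grb10 and Gnas, listed apart as depending on tissue or transcript, were the other 2. Imprinting of further members can depend on tissue too, as for several genes of the Kcnq1 domain. The copy used in these cells was not measured. Over all genes 7.67% rose. Dim on every array were 3 of the 16 paternally and 2 of the 14 maternally expressed genes. The difference between these classes was not tested.

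**Figure D2:**
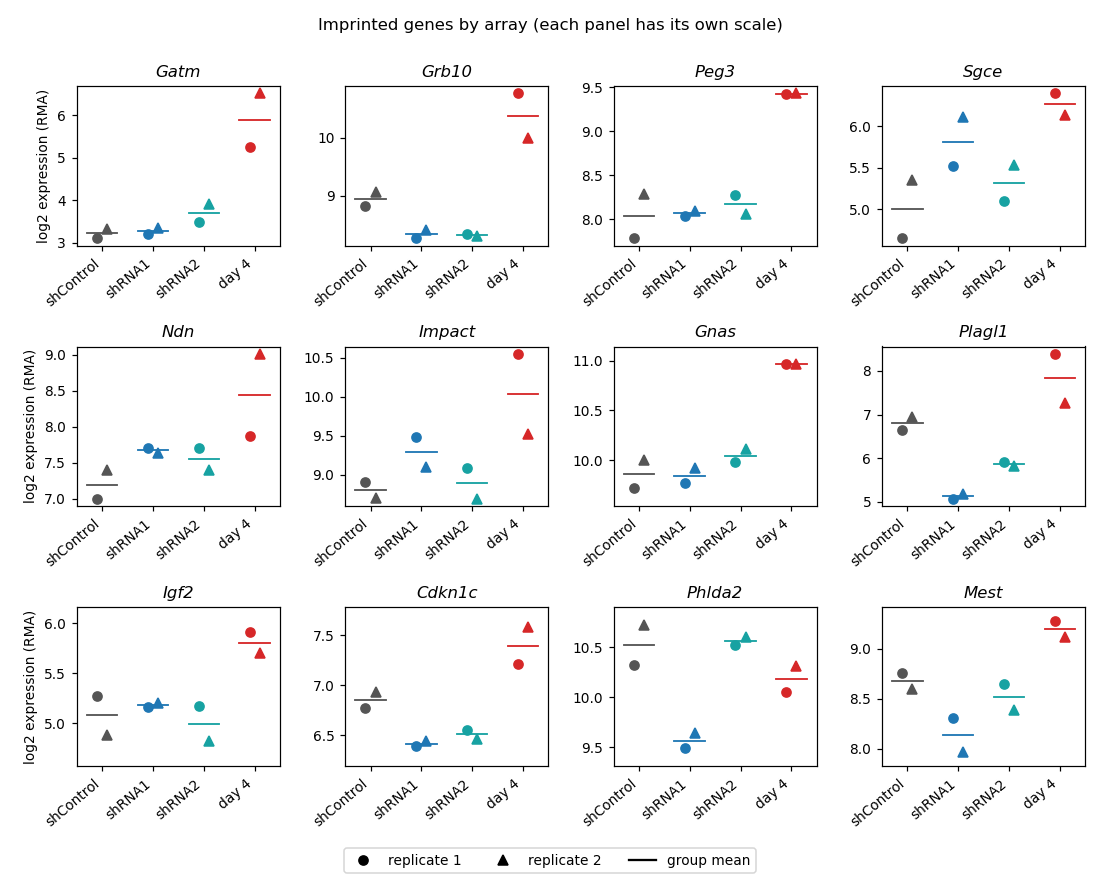
Log2 expression on each of the 8 arrays for the 10 imprinted genes called on day 4, and for Phlda2 and Mest; circles are replicate 1, triangles replicate 2, bars the group mean, and each panel has its own scale. Both day 4 arrays lie above both shControl arrays in the 10 called genes, while Plagl1, Grb10 and Cdkn1c on the 4 hairpin arrays lie below both controls.

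The difference between the 2 day 4 arrays had an SD of 0.642 across the 32 members and 0.408 across all genes. In the other groups the members' SD was 0.186 to 0.334. On day 4, 5 members were more than 1 apart, where 2.9% of all genes were. Magel2 (1.88), Gatm (1.26) and Ndn (1.14) were higher on replicate 2. Plagl1 (-1.12) and Impact (-1.03), with the sign as replicate 2 minus replicate 1, were higher on replicate 1. So each array was the higher one for some members, and no test was made of this spread. In the hairpin groups 0 members differed by more than 1 between replicates, where 0.274% of all genes did.

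**Figure D3:**
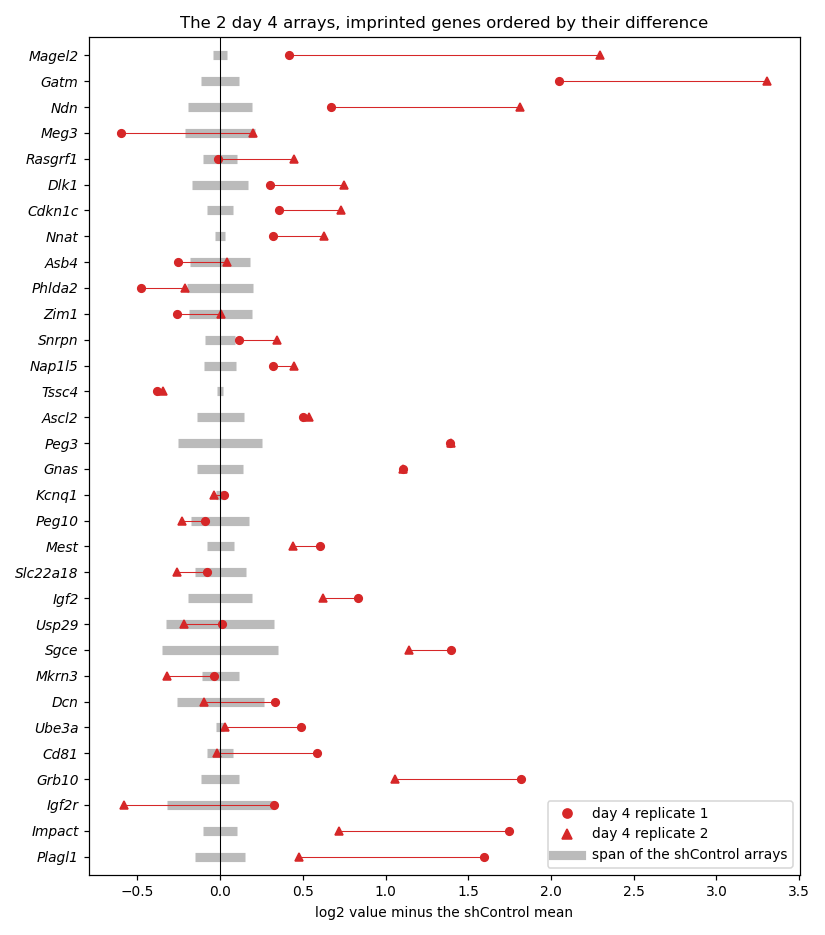
Each day 4 array (circle, replicate 1; triangle, replicate 2) relative to the shControl mean, for 32 imprinted genes ordered by replicate 2 minus replicate 1, with the span of the shControl arrays in grey; the x axis is in log2 units. Magel2 at the top has 0.42 and 2.30, Plagl1 at the bottom 1.59 and 0.48, and Peg3 and Gnas have nearly coincident points.

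Markers of other cell types moved on day 4 as well. Of 8 trophoblast markers 3 rose (Krt8, Eomes and Cdx2) and 1, Tfap2c, fell. Their summed linear level was 465 to 483 in shControl, 524 to 661 on the hairpin arrays and 1380 to 1560 on day 4, with the defining placental marker Tpbpa dim on every array. The brightest on day 4 were Krt8 (mean 9.70) and Eomes (8.54). The brightest in shControl was Tfap2c (7.67), with 0.64 ± 0.36 for shRNA1 and 0.71 ± 0.36 for shRNA2. With either hairpin limma called 0 of the 8. Of 7 mesoderm markers Eomes rose and Kdr fell, with a median change of -0.04. Their sum was 233 to 238 in shControl and 392 to 762 on day 4, and it includes Eomes (mean 5.84 in shControl and 8.54 on day 4), which the trophoblast sum holds too. Of 6 neural markers Zic1 rose, though it was dim on every array. Of 8 fibroblast markers Twist1 rose, from a control mean of 3.57, below 3.79. Of 10 extraembryonic endoderm markers limma called 0, with 2 at an unadjusted p under 0.05, and their sum was 201 to 210 in shControl and 197 to 216 on day 4. The part of these cells in the imprinted genes' changes was not tested, and in bulk RNA a change in the number of cells of a type cannot be told apart from a change in RNA per cell.

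Of 50 other imprinted genes listed, 34 had a probe set of their own, with a median change of 0.01 on day 4. Of these 2 rose and 4 fell, where 7.67% and 8.73% of all genes did. Calcr, the calcitonin receptor gene, rose by 3.57 ± 0.21 (adjusted p = 1.54e-05). Its control mean of 3.49 was below 3.79, so a fold cannot be bounded. Pon2, a paraoxonase gene, also rose, by 1.10 ± 0.15 (adjusted p = 0.00123). Both lie near Sgce and Peg10. Ddc, the dopa decarboxylase gene next to Grb10, changed by -2.25 ± 0.18 (adjusted p = 6.64e-05), opposite to Grb10. Ampd3 (-1.48), Gab1 (-0.86) and Mcts2 (-0.61) also fell.

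Of 27 regulators of imprints listed, 20 were measured. Of these 20, 9 fell and 1 rose on day 4, where 8.73% and 7.67% of all genes did. The list was chosen with earlier results of these data known, so these shares are no test of such regulators as a class. The imprint-binding factor gene Zfp57 fell by 1.90 ± 0.17 (adjusted p = 0.00015), Tet1 by 1.59 ± 0.22 and Dppa3, which guards imprints in the zygote, by 1.41 ± 0.27. Trim28, Setdb1, Uhrf1, Ehmt2, Eed and Ezh2 changed by -0.58 to -0.86. The de novo methyltransferase gene Dnmt3b rose by 1.88 ± 0.24 (adjusted p = 0.000883). Dnmt1 had -0.59 ± 0.23 and Ctcf, which insulates the Igf2 domain, -0.54 ± 0.17 (adjusted p = 0.127 and 0.058). DNA methylation was not measured.

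With shRNA1, limma called 0 of the 32 imprinted genes against shControl, where 0.242% of all genes were called. At an unadjusted p under 0.05 there were 8 members, with 9.82% of all genes. The members' median change was 0.03, and 27 of 32 lay within 0.5 of no change. Both shRNA1 arrays were above both controls for 7 members and below for 10, against 20.4% and 23% of all genes, and 19 changes were above 0, against 49.9% of all genes. Plagl1 and Phlda2 had the largest differences and missed the threshold by little (adjusted p = 0.0676 for both).

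Plagl1 had 5.07 and 5.19 with shRNA1 and 5.91 and 5.82 with shRNA2, against 6.65 and 6.95 in shControl. All 4 knockdown arrays lay below both controls. The difference was -1.67 ± 0.30 with shRNA1 and -0.94 ± 0.30 with shRNA2 (adjusted p = 0.818). It was called with shRNA1 without either day 4 array or when the fit held the compared groups alone (adjusted p = 0.00116 in the latter). With shRNA2 it was called only in the latter (adjusted p = 0.0249). Plagl1 was not called with shRNA1 without either shControl array (-1.82 and -1.51) or either shRNA1 array (-1.61 and -1.73). Without either shRNA2 array it stayed at -1.67 and was not called. Averaging its probe sets gave -0.87 with shRNA1 and -0.43 with shRNA2, its other probe set being dim.

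Phlda2 had 9.49 and 9.64 with shRNA1, below both controls (10.33 and 10.73), and 10.52 and 10.60 with shRNA2, between them. The difference was -0.96 ± 0.17 with shRNA1 and 0.03 ± 0.17 with shRNA2. The shRNA1 value was called without either day 4 array and when the fit held the compared groups alone (adjusted p = 0.0279 in the latter). It was also called with trend and robust settings (adjusted p = 0.0424). It was not called without either shControl array (-1.16 and -0.76) or either shRNA1 array (-0.88 and -1.04). Without either shRNA2 array it stayed at -0.96 and was not called. Between the hairpins Phlda2 was higher with shRNA2 by 1.00 ± 0.17, which did not pass (adjusted p = 0.133) but was called without either day 4 array (adjusted p = 0.0477). In that comparison 0 of 32 members were called, against 0.105% of all genes, where 0.0323% were higher with shRNA2 and 0.0726% lower. At an unadjusted p under 0.05 there were 3 members, with 5.15% of all genes. The shRNA2 arrays were both higher for 9 members and both lower for 6, against 21.9% and 21.7% of all genes.

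With shRNA2, 0 members were called by limma, as were 0 of all genes (background 0%). At an unadjusted p under 0.05 there were 3 members, Plagl1, Grb10 and Nnat, with 5.1% of all genes. The members' median change was 0.01, and 30 of 32 lay within 0.5 of no change. Both shRNA2 arrays were above both controls for 4 members and below for 5, against 15.4% and 17.8% of all genes, and 18 changes were above 0, against 48.4% of all genes. For the mean of both hairpins limma called 0 members, against 0.0726% of all genes, with 0.0565% higher and 0.0161% lower. Here 8 members had an unadjusted p under 0.05, with 8.42% of all genes, and 20 changes were above 0, against 49.1% of all genes. Both hairpins were compared with the same 2 control arrays, so their values are given side by side and their likeness is not tested.

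Grb10 was near the same level with both hairpins, at 8.27 and 8.41 with shRNA1 and 8.35 and 8.31 with shRNA2, below the controls' 8.83 and 9.06. The difference was -0.61 ± 0.23 and -0.62 ± 0.23 (adjusted p = 0.439 and 0.896), with no overlap with the controls. Averaging its probe sets moved the mean over both hairpins from -0.61 to -0.34. Cdkn1c had 6.39 and 6.44, and 6.56 and 6.46, also below both controls (-0.44 ± 0.16 and -0.35 ± 0.16). For Mest, the arrays of shRNA1 were low, at 8.30 and 7.97, whereas those of shRNA2, at 8.65 and 8.39, overlapped the controls (-0.54 ± 0.17 and -0.16 ± 0.17). Across the 4 hairpin arrays, 5 members lay below both controls (Plagl1, Grb10, Cdkn1c, Tssc4 and Asb4) and 3 above (Nnat, Cd81 and Ndn), against 10.6% and 9.53% of all genes. Nnat and Asb4 were near the dim limit of 3.79. Their means in shControl and with each hairpin were 3.27 to 3.77 and 3.39 to 3.81.

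Sgce had the largest higher value with shRNA1, though not with shRNA2, where Nnat (0.49), Gatm (0.48), Ascl2 (0.48) and Ndn (0.35) lay above it. Nnat and Gatm had control means below 3.79. Sgce had 5.52 and 6.11 for shRNA1 and 5.10 and 5.54 for shRNA2, against 4.65 and 5.35 in shControl. The difference was 0.81 ± 0.28 with shRNA1 (adjusted p = 0.402; 0.46 without shControl replicate 1 and 0.52 without shRNA1 replicate 2) and 0.32 ± 0.28 with shRNA2. Of the genes that rose on day 4, Peg3 (0.03 and 0.13), Gnas (-0.02 and 0.19) and Igf2 (0.10 and -0.08) had differences of at most 0.19 in size with either hairpin. Gatm had 0.06 ± 0.34 and 0.48 ± 0.34, Ndn 0.47 ± 0.32 and 0.35 ± 0.32, and Impact 0.49 ± 0.31 and 0.09 ± 0.31. The median change of the other imprinted genes was -0.02 with shRNA1 and 0.01 with shRNA2, and that of the imprint regulators -0.07 and -0.01. Limma called 0 of the 20 measured regulators with either hairpin. At an unadjusted p under 0.05 there were 3 with shRNA1 and 1 with shRNA2, with 9.82% and 5.1% of all genes. The largest regulator changes were 0.69 ± 0.27 (Dppa3) and -0.65 ± 0.17 (Ctcf) with shRNA1, and -0.57 ± 0.24 (Dnmt3b) with shRNA2.

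**Figure D4:**
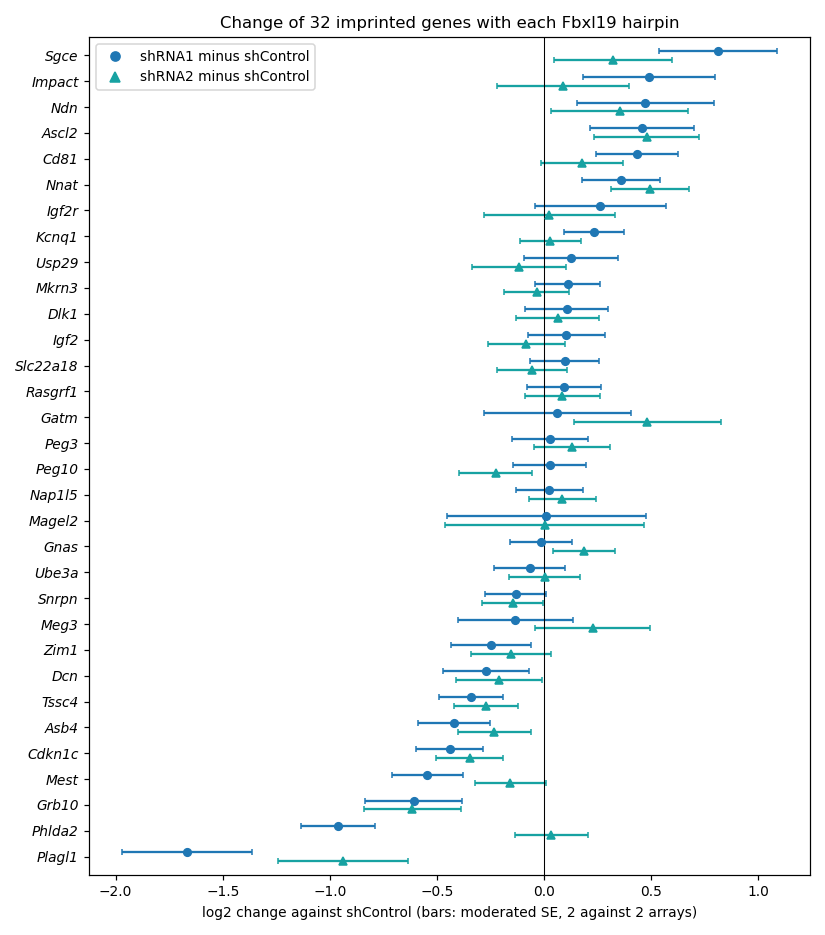
Log2 change against shControl with shRNA1 (circles) and shRNA2 (triangles) for 32 imprinted genes ordered by the shRNA1 change; bars are the moderated SE of 2 against 2 arrays, and both changes use the same controls. Plagl1 lies lowest with both (-1.67 and -0.94), Phlda2 is low with shRNA1 alone (-0.96 against 0.03), and no gene passed an adjusted p of 0.05.

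Among the 14 members with more than 1 probe set, the probe sets often gave different sizes. For Peg3 and the 5 brighter probe sets of Ndn the day 4 changes had 1 direction and a like size, 0.76 to 1.39 and 0.86 to 1.33. For Grb10, Gnas, Plagl1 and Igf2 the brightest probe set alone was called or near the threshold, and the others had -0.15 to 0.34. Probe sets can read different transcripts of a gene, which the annotation used here does not tell.

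**Figure D5:**
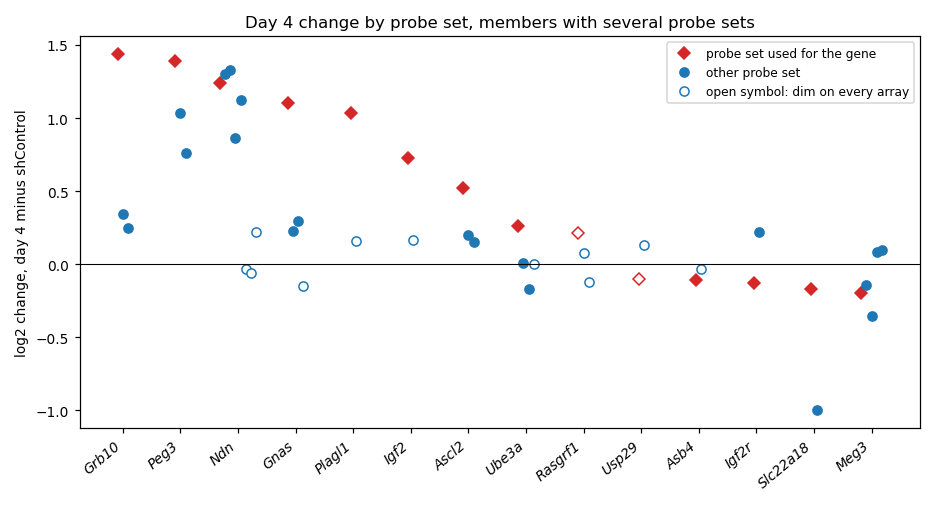
Day 4 change in log2 units for every probe set of the 14 members with several; red diamonds are the probe set used for the gene, blue circles the others, and open symbols were dim on every array. The 3 probe sets of Peg3 all lie at 0.76 or above, whereas Grb10 has 1.44 for the one used and 0.34 and 0.25 for the others.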

How the data were processed

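The values the authors deposited are on a log2 scale, with 1 value per probe set and array. The submitters' processing notes name RMA, a method that corrects background, normalizes quantiles and summarises probes, and that can compress differences of dim genes. Its version, and whether all 8 arrays were normalized jointly, is not given in the sources used here. Of 22690 probe sets, 20380 had 1 gene symbol once array controls were left out, and 20351 of these were matched by gene identifier to a RefSeq table of GRCm38.p6, giving 12393 genes. In R 4.3.3, limma 3.58.1 (lmFit, eBayes) fitted 4 group means per gene, leaving 4 residual degrees of freedom, with Benjamini-Hochberg adjustment over all genes and calls at an adjusted p under 0.05. It was tested on simulated data.

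Given by array are members called in any comparison, those with an unadjusted p under 0.01 against shControl, and those sharing a domain with a called member. Members and lists were chosen with earlier results of these data known. Precision is limited by the number of arrays, which carry no read depth. Promoter windows are from RefSeq. Alternatives are given in the closing section.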

Additional observations from a re-analysis of the deposited data

How the results depend on the processing

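Counts of called imprinted genes and of all called genes were recomputed under each alternative. Fitting the compared groups alone, members called were 2 with shRNA1, 1 with shRNA2, 1 with the mean of both hairpins and 5 on day 4, and genes called were 113, 40, 54 and 1145. With trend and robust settings they were 1 member and 48 genes with shRNA1, and 2 genes with shRNA2; after repeated quantile normalization, 50 and 2 genes. Replicate numbers are shared across groups, but nothing in the labels says that they pair the samples, and the correlation of deviations ran from -0.0776 to 0.504 between groups. With a replicate block, 1 member (Phlda2, adjusted p = 0.0344) and 49 genes were called with shRNA1, 22 genes with the mean of both hairpins, 8 between the hairpins, and 11 members on day 4 (Mest added). Leaving out each array in turn gave 0 to 2 members and 2 to 113 genes with shRNA1, 0 to 12 genes with shRNA2, 0 to 1 member and 0 to 54 genes for the mean, 0 to 1 member and 2 to 37 genes between the hairpins, and 5 to 10 members and 1102 to 2628 genes on day 4. The other counts stayed within 1.5 times, with the same 10 members called on day 4 after quantile normalization and after centring; centring moved the median of all genes by 0.06. No called member changed direction in the alternatives run. Gatm was not tested with the dimmest 30% of genes left out. The cause of the changed counts was not tested.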

Other observations

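Slc22a18, a member not called by its brightest probe set, had a second probe set with a day 4 change of -0.996 (adjusted p = 0.011 over all probe sets), and with the mean of both it had -0.58 (adjusted p = 0.0166). It was the only member called lower on day 4 in any alternative run. The 5 probe sets of Meg3 had day 4 changes of -0.35 to 0.09, and 1 of them had -0.72 ± 0.20 with shRNA1 (adjusted p = 0.298 over all probe sets), where the brightest had -0.13.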
